A study of Mus musculus with 8 samples.

Results

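Glucose is burned for energy through glycolysis and diverted into ribose for nucleotides and reducing power through the pentose phosphate pathway, and the genes of these routes were described in mouse fetal ovaries with and without BMP receptor 1A in the germ cells. The 33 genes were chosen by symbol from the 25239 gene symbols of the count files, for their place in the routes and with earlier results of these data known. They comprised 2 glucose transporters, 22 genes of glycolysis with its regulators and lactate dehydrogenases, 5 genes at the entry of pyruvate into mitochondria, and 4 enzymes of the pentose phosphate pathway. All 33 had a row in every library and all 33 passed the filter on low counts.

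RNA-Seq libraries were made from whole ovaries of E14.5 C57BL/6 embryos, in 4 libraries for each of 2 genotypes. Control embryos were *Bmpr1a* fl/fl, and the mutants, called *Bmpr1a*-cKO, were *Bmpr1a* fl/fl; *Oct4-Cre* Cre/WT. Each library pooled 2 ovary pairs, and the embryos were littermates from 6 litters. Every dam had received 1 mg of 4-hydroxytamoxifen and 0.5 mg of progesterone at 9.5 dpc and again at 10.5 dpc and 11.5 dpc, so that both genotypes carried the floxed alleles and were exposed to the drug, and the control embryos carried no Cre. The inducible Cre follows the *Oct4* promoter, which is active in germ cells at these stages, so the somatic cells of the ovary keep *Bmpr1a* and contribute to every value below.

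In glycolysis, hexokinases trap glucose in the cell, phosphofructokinase commits it to breakdown, and the later enzymes harvest ATP on the way to pyruvate. Pyruvate is then either reduced to lactate or oxidised by the mitochondrial pyruvate dehydrogenase complex, which is switched off when pyruvate dehydrogenase kinases (PDKs) phosphorylate it. Most steps are served by several isozymes whose use differs among tissues, and fetal germ cells and the somatic cells around them are known to differ in how they use glucose and pyruvate.

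The libraries held 8562961 to 15365052 counts. *Bmpr1a* itself stood at 199.5, 237, 221 and 216 CPM (counts scaled to the library size, itself normalized by TMM) in control libraries 1 to 4 and at 185, 195, 190 and 209 in the *Bmpr1a*-cKO libraries, a log2 fold change (log2FC, *Bmpr1a*-cKO over control) of -0.16 ± 0.06 (SE) that missed the threshold (FDR = 0.0692). The counts cover all cells of the ovary, and *Zglp1*, a germ cell target of BMP signalling, fell by 1.28 on the log2 scale (FDR = 0.000726). Markers of cell types were read at an FDR below 0.05, at which 17.3% of all genes tested were higher and 12.5% lower. Of 8 germ cell markers, 3 were higher and 1 was lower, and their summed level was 695 to 928 CPM in controls and 734 to 1144 CPM in *Bmpr1a*-cKO libraries. Of 8 pregranulosa markers 7 were lower (1375 to 1650 against 1165 to 1387 CPM summed), of 8 macrophage markers 6 were higher (33.03 to 41.7 against 47.3 to 62.5 CPM), and of 8 stroma markers 0 changed at this threshold. Of 8 endothelial markers 1 was lower and 7 had a log2FC below 0. Of 5 tested mesonephric markers 1 was lower and all 5 had a log2FC below 0. Of 9 erythroid markers 5 were tested and 1, the embryonic globin *Hbb-y*, was lower, and their sums overlapped (307 to 457 against 261 to 365 CPM). The adult globins *Hba-a1*, *Hba-a2*, *Hbb-bs* and *Hbb-bt* had 0 counts in all libraries. As the erythroid genes *Slc4a1* and *Alas2* stood at 67.9 and 32.8 CPM in controls, these counts of 0 are not read as absence of the RNA. In whole ovaries, fewer cells of a type and less RNA per cell cannot be told apart, and the part of these shifts in the results below was not tested.

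Genes of glucose uptake and breakdown were mostly higher in *Bmpr1a*-cKO ovaries or showed no call, and very few were lower. At an FDR below 0.05, 14 of the 33 genes (42.4%) were higher and 1 was lower, while 18 did not pass. Over all 14249 genes tested, 17.3% were higher and 12.5% were lower (29.8% in either direction). The 33 genes were chosen with earlier results of these data known, and the difference from all genes was not tested. With the fold-change threshold of a DEG added (absolute log2FC above 0.5), 6 of the 33 were upregulated, *Slc2a1*, *Hk2*, *Pfkp*, *Pfkfb3*, *Pdhb* and *Pdk1*, and 0 were downregulated, against a background of 6.11% and 4.06% (10.2% in either direction). All 4 *Bmpr1a*-cKO libraries lay above all 4 control libraries for 13 genes and below them for 2, where the background was 16.1% and 11.7% (27.9% in either direction). The median log2FC of the 33 genes was 0.15, with a range of -0.34 to 1.23 and 22 values above 0, while the median of all genes tested was -0.004.

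The summed level of the 33 genes was 4477 to 4981 CPM in controls and 5043 to 5514 CPM in *Bmpr1a*-cKO libraries. The direction of the group depends on what is taken as the reference. Scaling each library to its germ cell markers in place of TMM shifted the median log2FC of all genes by -0.30 and that of the 33 genes to -0.18, still 0.13 above the median of all genes, and it left 3 genes called higher (*Pfkp*, *Pfkfb3* and *Pdk1*) and 3 called lower (*Pfkfb4*, *Pdk2* and *Pdk3*). This scaling used the summed counts of the markers, in which *Dazl* weighed most. *Dazl* was itself called higher, at 327 CPM in controls and 506 CPM in *Bmpr1a*-cKO libraries (FDR = 0.00101). *Ddx4* was not called, at 142 and 153 CPM (FDR = 0.561), and scaling to it alone was not tested. The median log2FC of the 33 genes was 0.09 without control library 2, without control library 4 or without *Bmpr1a*-cKO library 3, and the number called lower became 4 without *Bmpr1a*-cKO library 1 and 2 without control library 1 or control library 2.

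**Figure D1:**
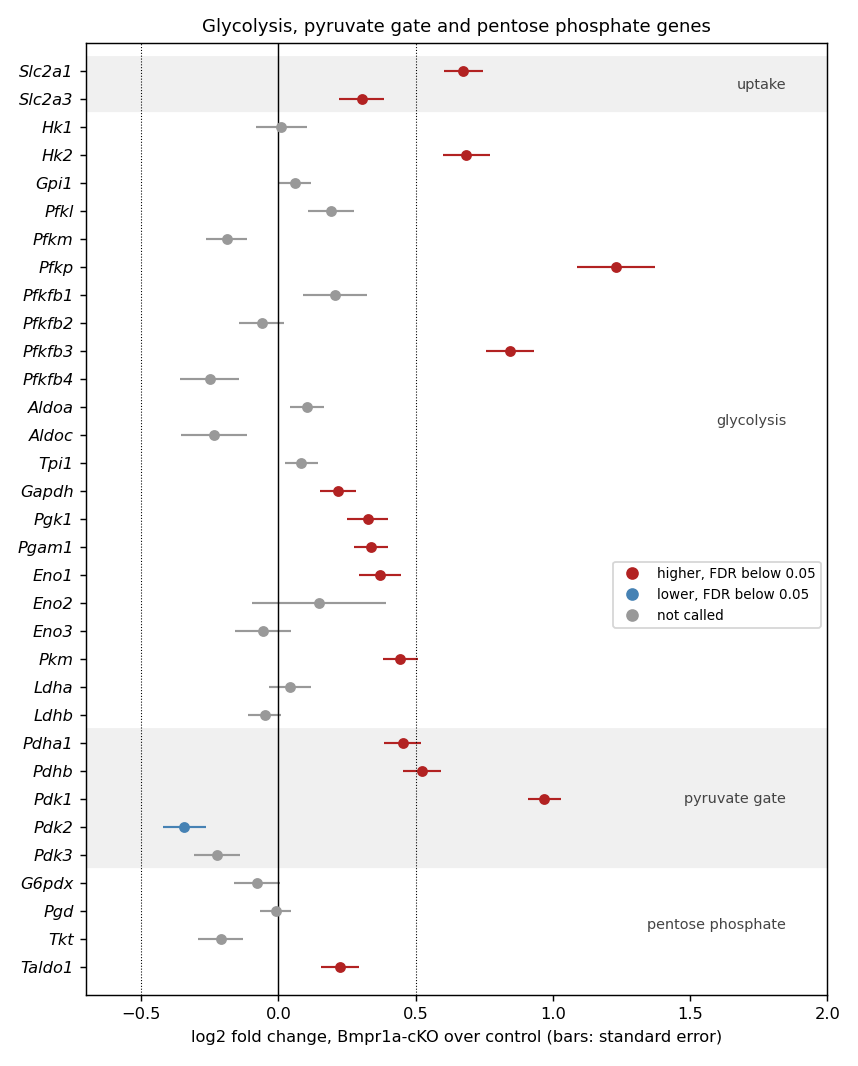
Log2FC (*Bmpr1a*-cKO over control, x axis) with its standard error for each of the 33 genes, in the order of the pathway from uptake (top) to the pentose phosphate enzymes (bottom). Dotted lines mark the fold-change threshold of a DEG. The 14 genes called higher under TMM scaling stand to the right, led by *Pfkp* at 1.23, and *Pdk2* at -0.34 is the 1 gene called lower, while scaling to germ cell markers turns the median of the 33 genes to -0.18.

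The sequences just upstream of 4 of these genes are given because isozymes of their families differed in response: *Pdk1*, *Hk2* and *Pfkp*, which were higher in *Bmpr1a*-cKO ovaries, and *Pdk2*, which was lower. Each is the 250 bases before the gene's RefSeq start on GRCm38.p6, written 5′ to 3′ on the strand of the gene, at chr2:71872974-71873223 (plus strand), chr6:82774455-82774704 (minus strand), chr13:6648772-6649021 (minus strand) and chr11:95041372-95041621 (minus strand). Capitals mark ACGTG, the core of the site through which hypoxia-inducible factors are known to act on glycolytic genes, or its variant GCGTG, read on either strand.
*Pdk1*: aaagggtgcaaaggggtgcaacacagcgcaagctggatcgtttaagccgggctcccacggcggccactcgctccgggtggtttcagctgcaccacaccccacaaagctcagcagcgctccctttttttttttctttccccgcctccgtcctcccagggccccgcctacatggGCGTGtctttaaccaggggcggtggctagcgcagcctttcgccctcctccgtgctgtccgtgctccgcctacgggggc
*Hk2*: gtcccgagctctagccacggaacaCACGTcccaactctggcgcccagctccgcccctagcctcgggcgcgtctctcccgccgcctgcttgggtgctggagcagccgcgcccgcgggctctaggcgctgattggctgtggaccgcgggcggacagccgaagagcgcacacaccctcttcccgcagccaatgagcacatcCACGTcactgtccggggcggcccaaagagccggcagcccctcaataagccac
*Pfkp*: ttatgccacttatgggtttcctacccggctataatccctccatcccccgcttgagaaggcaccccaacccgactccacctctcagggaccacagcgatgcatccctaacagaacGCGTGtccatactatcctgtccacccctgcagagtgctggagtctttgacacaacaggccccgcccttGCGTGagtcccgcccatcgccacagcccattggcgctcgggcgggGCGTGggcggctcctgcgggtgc
*Pdk2*: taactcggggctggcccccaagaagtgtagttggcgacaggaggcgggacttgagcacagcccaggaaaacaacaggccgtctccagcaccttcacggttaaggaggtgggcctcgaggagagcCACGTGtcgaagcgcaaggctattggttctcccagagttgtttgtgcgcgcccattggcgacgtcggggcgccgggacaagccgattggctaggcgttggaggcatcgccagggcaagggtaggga
Over this window, *Hk2* held ACGTG at 2 places, *Pfkp* held GCGTG at 3, *Pdk1* held GCGTG at 1, and *Pdk2* held CACGTG, the E-box to which MYC proteins bind, which is its own reverse complement and therefore contains ACGTG on both strands. A window was found in RefSeq for 32 of the 33 genes, all but *Slc2a3*. ACGTG stood in 34.4% of the 32 windows and in 16.6% of all 32851 promoters of the same length, and GCGTG in 59.4% and 28.2%. The E-box CACGTG stood in 12.5% of the 32 windows and in 6.02% of all promoters, and GGCGCC, a palindrome known to be bound by the SMAD proteins that BMP receptors activate, in 25.0% and 9.59%. Of the 13 genes called higher that had a window, 46.2% held ACGTG, 69.2% GCGTG, 30.8% GGCGCC and 0 CACGTG, and of the other 19 genes these shares were 26.3%, 52.6%, 21.1% and 21.1%. Each of these motifs contains CG, and base composition was not matched between the 32 windows and all promoters. The set of all promoters was not reduced to 1 entry per gene, as the 32 windows were. These are matches of letters in 1 window per gene, and which start site the ovaries use was not tested.

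Both glucose transporters were higher in *Bmpr1a*-cKO ovaries. *Slc2a1* (chr4:119108711-119137983 on mm10) encodes GLUT1, the transporter of basal glucose uptake in most embryonic cells. It stood at 47.5, 45.8, 47.2 and 51.0 CPM in control libraries 1 to 4 and at 78.3, 71.0, 84.9 and 72.2 CPM in *Bmpr1a*-cKO libraries 1 to 4. The groups did not overlap and the lowest *Bmpr1a*-cKO value lay well above the highest control value, with a log2FC of 0.67 ± 0.07 (SE, FDR = 6.65e-06). *Slc2a3*, which encodes the high-affinity transporter GLUT3, stood at 26.6, 30.9, 30.2 and 27.0 CPM against 30.5, 35.8, 37.8 and 36.5 CPM. Here *Bmpr1a*-cKO library 1 fell inside the range of the controls. Its log2FC was 0.30 ± 0.08 (FDR = 0.0126), a call that was lost without control library 4, and its sign turned under germ cell marker scaling (-0.01). Per kilobase of exon, the 2 transporters together reached 17.2 to 18.3 CPM in controls and 25.2 to 29.4 CPM in *Bmpr1a*-cKO libraries, and *Slc2a1* supplied most of it in both.

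Of the hexokinases, which phosphorylate glucose as it enters the cell, 1 changed and the other did not pass. *Hk2* (chr6:82725025-82774454), the regulated form of insulin-sensitive and proliferating tissues, stood at 41.3, 42.2, 34.4 and 35.2 CPM in controls and 59.6, 64.1, 66.8 and 55.6 CPM in *Bmpr1a*-cKO libraries. All *Bmpr1a*-cKO values lay above all control values, and the log2FC was 0.69 ± 0.08 (FDR = 2.69e-05). *Hk1*, the housekeeping form, had 84.8, 62.8, 64.0 and 70.0 CPM in controls and 75.7, 77.0, 67.4 and 64.1 CPM in *Bmpr1a*-cKO libraries. These ranges overlapped throughout, and its log2FC of 0.01 ± 0.09 (FDR = 0.941) took either sign among the alternatives. *Gpi1*, which isomerises the product to fructose 6-phosphate, had a log2FC of 0.06 ± 0.06 (FDR = 0.505).

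The committing step of glycolysis held the largest relative change of the 33 genes, in its least abundant isozyme. *Pfkp* (chr13:6579768-6648777), the platelet-type phosphofructokinase, stood at 5.10, 5.93, 5.06 and 5.43 CPM in controls and 10.9, 15.9, 11.6 and 11.7 CPM in *Bmpr1a*-cKO libraries. The controls were tight, *Bmpr1a*-cKO library 2 was the highest, and the log2FC was 1.23 ± 0.14 (FDR = 1.42e-05). *Pfkp* shares 748 exon bases with *Pitrm1* on the opposite strand, whose own log2FC was -0.08, and the strand setting of the counting was not given. The liver-type *Pfkl* had a log2FC of 0.19 ± 0.08 (FDR = 0.0949) and the muscle-type *Pfkm* one of -0.19 ± 0.07 (FDR = 0.0678), and neither passed, though *Pfkl* passed in 2 and *Pfkm* in 5 of 17 alternatives. *Pfkm* was nevertheless the most abundant of the 3 per kilobase of exon, at 23.9 CPM in controls and 21.0 CPM in *Bmpr1a*-cKO ovaries, with *Pfkl* at 15.5 and 17.7 CPM and *Pfkp* at 0.401 and 0.935 CPM. Without division by exon length, *Pfkl* (103.3 and 118.4 CPM) stood above *Pfkm* (79.7 and 70.2 CPM). The summed level of the family was 36.4 to 43.8 CPM per kilobase in controls and 36.3 to 45.0 CPM per kilobase in *Bmpr1a*-cKO libraries, ranges that overlapped.

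Phosphofructokinase is itself driven by fructose 2,6-bisphosphate, which the 4 bifunctional PFKFB enzymes make and break down, and PFKFB3 is the isoform with the strongest bias to synthesis. *Pfkfb3* (chr2:11471433-11554077) stood at 18.3, 17.8, 15.6 and 14.4 CPM in controls and at 28.9, 30.9, 29.2 and 29.3 CPM in *Bmpr1a*-cKO libraries. The *Bmpr1a*-cKO libraries were nearly level with one another and all were above the controls, with a log2FC of 0.84 ± 0.09 (FDR = 5.94e-06). The log2FC was 0.21 ± 0.12 for *Pfkfb1* (FDR = 0.212), -0.06 ± 0.08 for *Pfkfb2* (FDR = 0.614) and -0.25 ± 0.11 for *Pfkfb4* (FDR = 0.0968), none of which passed, though *Pfkfb4* passed in 4 of 17 alternatives. *Pfkfb4* had 19.8, 17.4, 17.3 and 18.2 CPM in controls and 19.2, 13.6, 14.2 and 14.8 CPM in *Bmpr1a*-cKO libraries, so that *Bmpr1a*-cKO library 1 stayed among the controls and the other *Bmpr1a*-cKO libraries were below them.

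In the upper part of the pathway after phosphofructokinase, no gene passed the test. *Aldoa* and *Aldoc*, the aldolases that split fructose 1,6-bisphosphate, had a log2FC of 0.10 ± 0.06 (FDR = 0.242) and -0.23 ± 0.12 (FDR = 0.156). *Tpi1*, which interconverts the resulting triose phosphates, had a log2FC of 0.08 ± 0.06 (FDR = 0.336).

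From glyceraldehyde 3-phosphate to pyruvate, a gene of every step was higher in *Bmpr1a*-cKO ovaries under TMM scaling, each by a modest amount. *Gapdh*, often used as a reference transcript, had 714, 599, 666 and 632 CPM in controls and 814, 746, 755 and 722 CPM in *Bmpr1a*-cKO libraries. The highest control library, 1, came within a few CPM of the lowest *Bmpr1a*-cKO library, 4, and the log2FC of 0.22 ± 0.07 (FDR = 0.0216) was no longer called without control library 2, without control library 4 or with library size alone, and turned to -0.07 under germ cell marker scaling. *Pgk1*, the first step that makes ATP, had 108, 109, 100.3 and 102 CPM against 113, 137, 147 and 128 CPM. *Bmpr1a*-cKO library 1 was the closest to the controls, and the log2FC was 0.33 ± 0.07 (FDR = 0.00377). *Pgam1*, the phosphoglycerate mutase, had 86.3, 81.4, 80.0 and 77.9 CPM against 111, 101, 104 and 96.0 CPM, with no overlap and a log2FC of 0.34 ± 0.06 (FDR = 0.000844).

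*Eno1*, the ubiquitous enolase, had 432, 342, 384 and 363 CPM in controls and 539, 479, 502 and 446 CPM in *Bmpr1a*-cKO libraries. The groups did not overlap, and the log2FC was 0.37 ± 0.08 (FDR = 0.00215). The neuronal *Eno2*, at 1.31 CPM in control, and the muscle *Eno3* did not pass, with a log2FC of 0.15 ± 0.25 (FDR = 0.715) and -0.06 ± 0.10 (FDR = 0.729). *Pkm*, the pyruvate kinase of most fetal cells, had 606, 582, 646 and 565 CPM against 799, 809, 876 and 779 CPM. This was the clearest change of the lower pathway, with a log2FC of 0.44 ± 0.06 (FDR = 9.34e-05), and the gene-level counts do not separate its M1 and M2 splice forms. The lactate dehydrogenases, which use pyruvate to regenerate NAD+, had a log2FC of 0.04 ± 0.08 for *Ldha* (FDR = 0.721) and -0.05 ± 0.06 for *Ldhb* (FDR = 0.571), and their levels overlapped between the genotypes. *Gapdh*, *Pgk1* and *Eno1* have near-identical processed copies in the mouse genome. Of 6 processed copies listed for these routes, the copies *Gapdh-ps15* and *Pgk1-rs7* had no row, so those of *Gapdh* and *Pgk1* were not checked. The other 4, *Eno1b*, *Aldoart1*, *Aldoart2* and *G6pd2*, had a row and 0 were abundant enough to test. Their summed level was 0.266 to 1.03 CPM over all libraries, and reads shared with other copies could not be assessed.

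**Figure D2:**
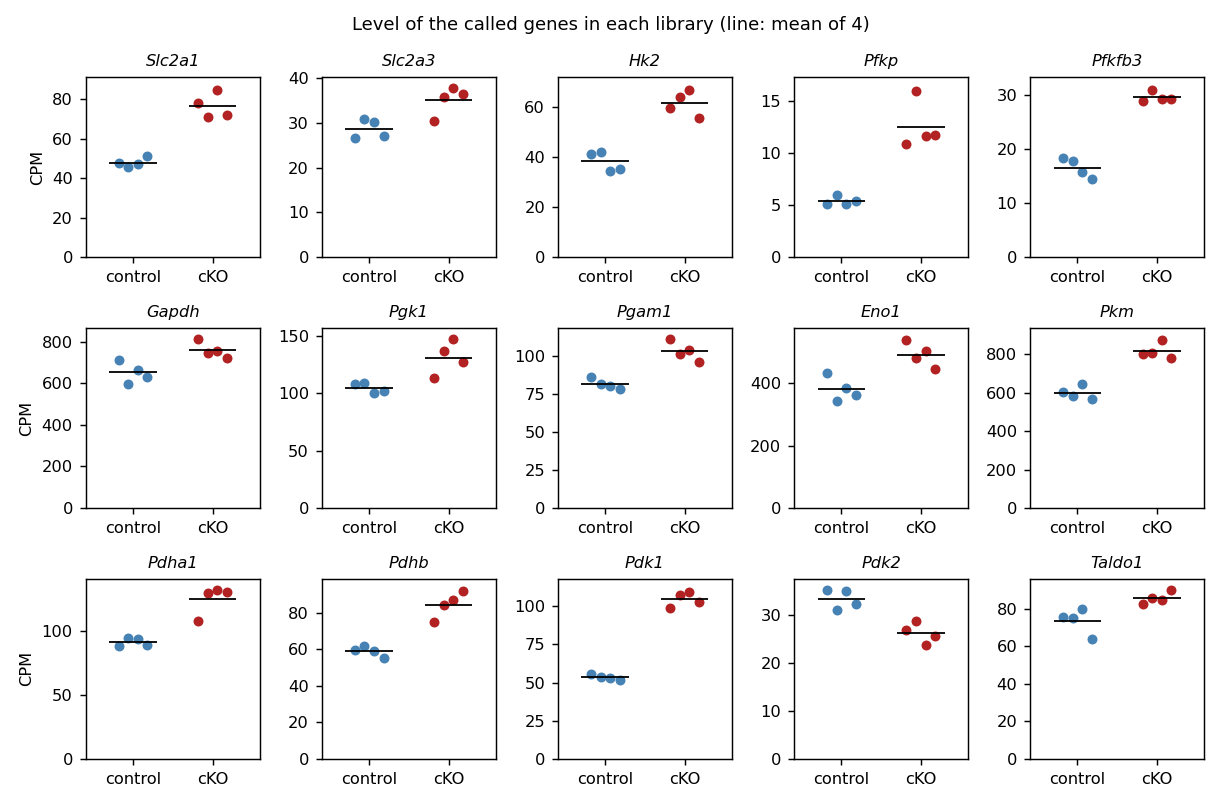
Level in each library (CPM, TMM-scaled, y axis from 0) of the 15 genes with an FDR below 0.05, with control libraries in blue, *Bmpr1a*-cKO libraries in red and a line at the mean of each 4. The groups separate in every panel but that of *Slc2a3*, where the *Bmpr1a*-cKO library at 30.5 CPM lies inside the control range, and the groups lie farthest apart for *Pfkp*, *Pdk1* and *Pfkfb3*.

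At the gate between glycolysis and the mitochondria, 4 of 5 genes were called (80%, against 29.8% of all genes tested), and the kinases did not change together. *Pdha1* and *Pdhb* encode the subunits of pyruvate dehydrogenase itself, which turns pyruvate into acetyl-CoA. *Pdha1* (chrX:160122209-160138413) had 88.3, 94.9, 94.0 and 89.4 CPM in controls and 108, 130, 132 and 131 CPM in *Bmpr1a*-cKO libraries, a log2FC of 0.45 ± 0.07 (FDR = 0.000157). *Bmpr1a*-cKO library 1 was clearly lower than the other *Bmpr1a*-cKO libraries and still above every control. *Pdha1* shares 603 exon bases with *Map3k15* on the opposite strand, which was also higher (log2FC 0.38, FDR = 0.0081), and reads of the 2 genes cannot be told apart if strand was not used. *Pdhb* (chr14:8165996-8173025) had 59.8, 61.7, 59.1 and 55.5 CPM against 74.9, 84.3, 87.1 and 92.1 CPM, with no overlap and a log2FC of 0.52 ± 0.07 (FDR = 5.99e-05).

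*Pdk1* (chr2:71873224-71903858) showed the smallest FDR of the 33 genes. It stood at 55.3, 53.6, 53.0 and 51.6 CPM in controls and 98.6, 107, 109 and 103 CPM in *Bmpr1a*-cKO libraries, so both groups were tight and far apart, with a log2FC of 0.97 ± 0.06 (FDR = 3.78e-08). *Pdk2* (chr11:95026258-95041354), the broadly expressed kinase, moved the other way, with 35.1, 30.9, 34.9 and 32.3 CPM in controls and 26.8, 28.6, 23.8 and 25.5 CPM in *Bmpr1a*-cKO libraries. Its groups did not overlap either and it fell by 0.34 on the log2 scale (SE 0.08, FDR = 0.0043). *Pdk3* (chrX:93764607-93832201), the most abundant kinase here per kilobase of exon (39.5 CPM in control), had 93.4, 105, 110.3 and 95.4 CPM against 71.4, 88.6, 93.4 and 91.7 CPM. Its highest *Bmpr1a*-cKO value and its lowest control value were almost equal, and its log2FC of -0.22 ± 0.08 just missed the threshold (FDR = 0.0533), which it passed in 7 of 17 alternatives, DESeq2 among them. Without division by exon length, *Pdk1* (104.4 CPM) stood above *Pdk3* (86.3 CPM) in *Bmpr1a*-cKO ovaries. Together the 3 kinases came to 54.1 to 60.9 CPM per kilobase in controls and 49.1 to 58.0 CPM per kilobase in *Bmpr1a*-cKO libraries, which overlapped.

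Of the 4 pentose phosphate enzymes among the 33 genes, 1 was called higher (25%, against 17.3% of all genes tested) and 3 were not called. *G6pdx*, its first and rate-limiting enzyme, had a log2FC of -0.08 ± 0.08 (FDR = 0.527), and *Pgd*, the next NADPH-producing enzyme, one of -0.01 ± 0.06 (FDR = 0.92). In the non-oxidative branch, which exchanges sugars with glycolysis, *Taldo1*, transaldolase, had 75.7, 75.4, 79.8 and 64.1 CPM in controls and 82.9, 86.0, 84.8 and 90.1 CPM in *Bmpr1a*-cKO libraries. The groups did not overlap and control library 4 was the lowest of all. The log2FC of 0.22 ± 0.07 (FDR = 0.0249) was not called without control library 4, without *Bmpr1a*-cKO library 2, 3 or 4, or with library size alone, and its sign turned under germ cell marker scaling (-0.07). *Tkt*, transketolase, had 506, 446, 442 and 430 CPM against 465, 393, 359 and 360 CPM, with *Bmpr1a*-cKO library 1 inside the control range, and its log2FC of -0.21 ± 0.08 did not pass (FDR = 0.0675) but passed in 5 of 17 alternatives, among them DESeq2 and the fit without *Bmpr1a*-cKO library 1 (log2FC -0.30, FDR = 0.00287).

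Position on the X chromosome was shared by 5 of the 33 genes, *Pfkfb1*, *Pgk1*, *Pdha1*, *Pdk3* and *G6pdx*. Of these 5, 2 were higher and 0 were lower, with a median log2FC of 0.21. Of the 554 genes tested on the X chromosome, 99 were higher and 82 lower, and their median log2FC was -0.008.

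Because an isozyme's share of its family is measured within each library, it does not depend on how libraries were scaled. Shares were computed from CPM per kilobase of exon for 17 isozymes in 8 families and compared between genotypes by exact permutation of the libraries (two-sided). For 11 of the 17 the groups did not overlap and p was 0.0286, the smallest that 4 against 4 libraries allow (adjusted p = 0.0442 over the 17 shares). The shares of a family sum to its whole, so a rise within a family forces a fall within it, and the 11 are not separate results. Their adjusted p is the same because they tie at the smallest p. Shares in families of other genes were not computed, so no background stands beside this count. *Pdk1* went from 12.1% ± 0.758 of the kinase transcripts in control to 24.3% ± 1.14 in *Bmpr1a*-cKO ovaries (SD, n = 4 libraries each, exact permutation p = 0.0286), while *Pdk3* went from 69.4% ± 2.03 to 60.7% ± 2.81 (exact p = 0.0286). *Pdk2* had 18.5% ± 1.42 and 15.0% ± 1.90, with overlapping libraries (exact p = 0.0571). *Hk2* went from 43.8% ± 3.58 to 55.3% ± 2.41 of the hexokinase pair (exact p = 0.0286), which passes the level of *Hk1* only per kilobase, since in CPM it stayed below *Hk1* (61.5 against 71.1 in *Bmpr1a*-cKO ovaries). *Pfkfb3* went from 17.8% ± 1.63 to 28.5% ± 0.897 of its family (exact p = 0.0286), while *Pfkfb4* had 30.4% ± 1.81 and 23.2% ± 3.96 with overlap (exact p = 0.0857).

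Among the phosphofructokinases, the share of *Pfkm* fell from 60.1% ± 1.11 to 53.0% ± 0.433, that of *Pfkl* rose from 38.9% ± 1.12 to 44.6% ± 0.917, and that of *Pfkp* rose from 1.02% ± 0.147 to 2.38% ± 0.540 (SD, n = 4, exact p = 0.0286 for each). The levels of *Pfkm* and *Pfkl* themselves were not called. *Slc2a1* rose from 77.5% ± 1.97 to 81.8% ± 1.81 of the transporters and *Aldoa* from 97.9% ± 0.140 to 98.3% ± 0.174 of the aldolases (exact p = 0.0286 for each). *Eno1* rose from 91.2% ± 0.816 to 93.2% ± 0.120 of the enolases, and *Eno3* went from 8.48% ± 0.842 to 6.47% ± 0.0930 (exact p = 0.0286 for each). The level of *Eno3* itself, 11.35 CPM in controls and 11.02 CPM in *Bmpr1a*-cKO ovaries, was not called. The *Ldha* share of the lactate dehydrogenases was 22.6% ± 1.64 in controls and 23.7% ± 1.18 in *Bmpr1a*-cKO ovaries, and the libraries overlapped (exact p = 0.343). *Eno2*, *Pfkfb1* and *Pfkfb2* had overlapping shares as well. Exon lengths came from the GENCODE annotation as the union of all exons of a gene, so a share depends on which transcripts the ovary uses, which was not measured.

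**Figure D3:**
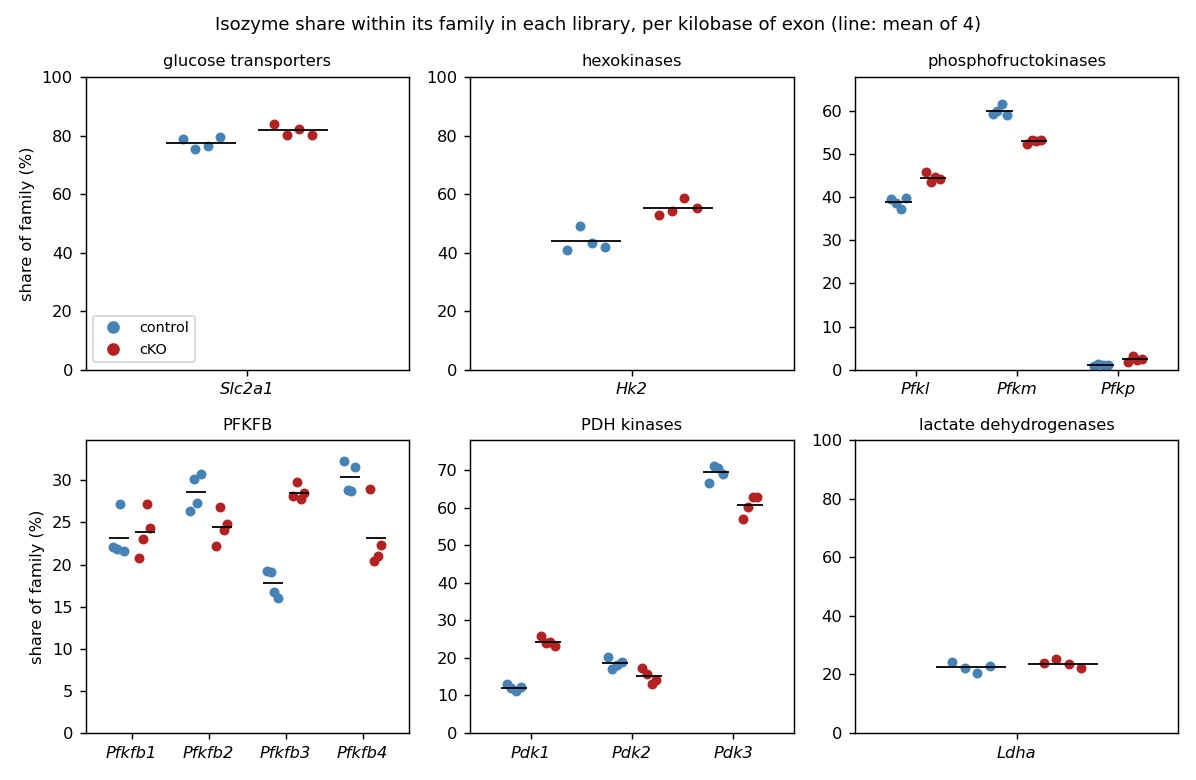
Share of each isozyme in its family in each library (percent of the family's summed CPM per kilobase of exon, y axis), with control in blue, *Bmpr1a*-cKO in red and a line at the mean of each 4. *Pdk1*, *Hk2* and *Pfkfb3* take a larger share in every *Bmpr1a*-cKO library, *Pdk3* and *Pfkm* a smaller one, and *Ldha* lies between 20.5% and 25.1% in both groups.

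Levels of different genes were compared per kilobase of exon. The length is the union of all annotated exons of a gene, so the order depends on it. In CPM, *Gapdh* (652.6) and *Pkm* (599.9) stood above *Ldhb* (300.5) in controls. Per kilobase, the highest levels in control ovaries were those of *Ldhb* (191 CPM), *Gapdh* (158 CPM), *Aldoa* (149 CPM) and *Pkm* (119.9 CPM), and in *Bmpr1a*-cKO ovaries those of *Ldhb* (185 CPM), *Gapdh* (184 CPM), *Pkm* (163 CPM) and *Aldoa* (159.9 CPM). At the other end stood *Eno2* (0.278 and 0.312 CPM) and *Pfkp* (0.401 and 0.935 CPM). *Ldhb*, the heart-type form, exceeded *Ldha* (55.7 and 57.5 CPM) in both genotypes.

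Enzymes and carriers next to these routes were read beside the 33 genes. Of 49 such genes listed for their roles, 38 were abundant enough to test, and 4 were higher and 8 lower, with a median log2FC of -0.06. These are 31.6% called in either direction, near the 29.8% of all genes, and 10.5% called higher where all genes had 17.3%, and no test of a difference from the 33 genes was made. *Slc2a12*, a further glucose transporter (GLUT12), had 0.658, 0.974, 1.22 and 0.884 CPM in controls and 3.46, 3.72, 3.98 and 3.96 CPM in *Bmpr1a*-cKO libraries, a log2FC of 2.03 ± 0.22 (FDR = 7.58e-06) at a low level. The other transporters of this family in the list, *Slc2a4* (0.04, FDR = 0.878), *Slc2a8* (-0.17, FDR = 0.301) and *Slc2a10* (-0.08, FDR = 0.755), were not called. *Gpd1l*, a relative of the glycerol 3-phosphate dehydrogenase that takes triose phosphate towards lipid, rose by a log2FC of 0.77 ± 0.08 (FDR = 8.47e-06), or 0.48 (FDR = 0.0570), no longer called, under germ cell marker scaling. *Slc16a7*, the monocarboxylate carrier MCT2, fell by 0.81 on the log2 scale (SE 0.19, FDR = 0.00473), from 5.05 to 2.88 CPM. The more abundant *Slc16a1* (69.4 and 72.6 CPM, log2FC 0.07) and *Slc16a3* (31.6 and 30.7 CPM, log2FC -0.05) were not called. *Tktl1*, a transketolase-like gene, fell by 0.76 on the log2 scale (SE 0.18, FDR = 0.00497).

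The remaining called neighbours changed less and are named after their values were seen. Of these, *Rpe* (log2FC 0.25), an epimerase of the pentose phosphate pathway, and *G6pc3* (0.46), a glucose 6-phosphatase, were higher. *Pdp1*, a phosphatase that reverses the action of the PDKs, was lower (log2FC -0.44 ± 0.09, FDR = 0.00113), with 34.8 to 40.7 CPM in controls and 23.4 to 30.2 CPM in *Bmpr1a*-cKO libraries. *Pdp2*, another such phosphatase, was not called (log2FC -0.16 ± 0.09, FDR = 0.213). Around the pentose phosphates, *H6pd* (-0.35), *Rpia* (-0.23) and *Prps1* (-0.29), which make 6-phosphogluconolactone in the endoplasmic reticulum, ribose 5-phosphate and phosphoribosyl pyrophosphate, were lower. So were *Pcx* (-0.41) and *Pck2* (-0.30), which lead pyruvate and oxaloacetate back towards glucose. The other pyruvate dehydrogenase subunits were not called, with a log2FC of 0.12 ± 0.06 for *Dlat* (FDR = 0.164), -0.07 ± 0.08 for *Dld* (FDR = 0.591) and 0.07 ± 0.08 for *Pdhx* (FDR = 0.546).

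Many of the 14 higher genes are textbook targets of hypoxia-inducible factors (HIFs). So are *Ldha* (log2FC 0.04), *Aldoa* (0.10), *Tpi1* (0.08) and *Pfkfb4* (-0.25), which were not called under TMM scaling. A list of 22 HIF regulators and targets outside glycolysis was therefore read beside these genes. Of the 22, 4 were higher and 0 lower, a share of 18.2% against 17.3% of all genes, with a median log2FC of 0.05. *Egln3*, a HIF prolyl hydroxylase and itself a HIF target, had 5.84, 6.91, 7.21 and 6.25 CPM in controls and 13.1, 16.1, 22.8 and 18.8 CPM in *Bmpr1a*-cKO libraries (log2FC 1.44 ± 0.15, FDR = 6.50e-06). *Ero1l*, an oxidase of protein folding, rose by a log2FC of 0.55 ± 0.07 (FDR = 5.09e-05) and was not called under germ cell marker scaling (0.23, FDR = 0.336), and *Egln1* (0.37) and *P4ha1* (0.22), named after their values were seen, were the other calls. *Hif1a* had a log2FC of 0.05 ± 0.07 (FDR = 0.602), *Vegfa* one of -0.18 ± 0.07 (FDR = 0.0782), *Bnip3* one of 0.09 ± 0.08 (FDR = 0.431) and *Car9* one of 0.26 ± 0.38 (FDR = 0.653), none of which passed.

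Of 9 regulators of the MYC and glucose-sensing MLX network, 1 was higher and 1 lower, a share of 22.2% where 29.8% of all genes were called. *Arrdc4*, a glucose-induced arrestin, was higher (log2FC 0.29 ± 0.07, FDR = 0.00696) and *Mycl* was lower (-0.41 ± 0.09, FDR = 0.00328), both named after their values were seen. Without *Bmpr1a*-cKO library 1 the counts were 2 and 2. *Myc* had a log2FC of -0.25 ± 0.15 (FDR = 0.224), *Mycn* one of 0.12 ± 0.07 (FDR = 0.253) and *Txnip*, a glucose-responsive target of the network, one of -0.10 ± 0.07 (FDR = 0.301).

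**Figure D4:**
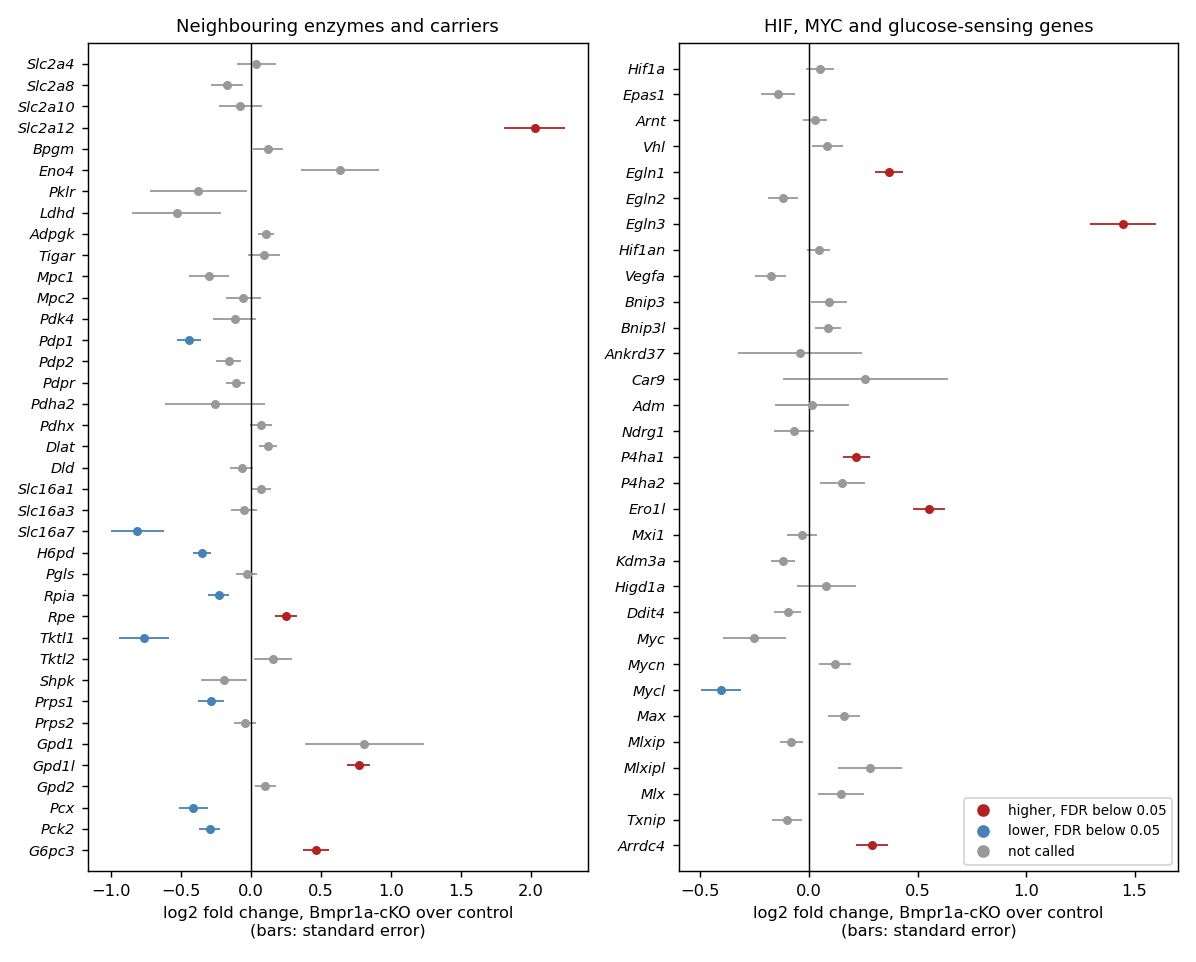
Log2FC (*Bmpr1a*-cKO over control, x axis) with its standard error for the tested genes next to glycolysis (left) and for regulators and targets of HIF, MYC and glucose sensing (right), under TMM scaling. *Slc2a12* at 2.03 and *Egln3* at 1.44 stand far from the rest, while *Hif1a* (0.05) and *Myc* (-0.25, with a wide SE of 0.15) were not called.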

How the data were processed

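RNA-Seq of 4 control and 4 *Bmpr1a*-cKO ovary pools was analysed. The authors trimmed the reads with Trimmomatic 0.39 and mapped them to mm10 with STAR 2.5.2, per the submitters' processing notes, and deposited whole-number counts per gene symbol for each library, without normalization. The libraries were made with a directional kit. The reads per gene were counted with STAR as well. The annotation and the strand setting of the counting are not given in the sources used here, so overlapping genes and processed copies are uncertain. A CPM table of the authors was not used.

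The package edgeR 4.0.16 in R 4.3.3 gave CPM, log2FC and FDR: filterByExpr with genotype as the group, TMM scaling, and the quasi-likelihood F test (two-sided, Benjamini-Hochberg adjustment over the 14249 genes tested). All 8 libraries entered the fit, with no covariate. A gene was called at an FDR below 0.05, and a DEG also had an absolute log2FC above 0.5. Depth ran from 8562961 to 15365052 counts per library. The pools share litters that the labels do not assign, and p-values measure the spread between pools. Values with ± SD are over 4 libraries. The fit was tested on simulated data.

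Isozyme shares were taken from CPM per kilobase of exon (GENCODE vM21) and compared by exact permutation over libraries in Python 3.11.15 with scipy 1.17.1. Promoter windows came from RefSeq on GRCm38.p6. Alternatives were DESeq2 1.42.0, limma-voom (limma 3.58.1), RLE, library size and germ cell marker scaling, other filters, a fit without *Rn45s*, the replicate number as a block, and each library left out in turn. All 33 genes are named, with library values for those with an FDR below 0.05 and for contrasts within a family. Of the pathway lists, DEGs are named, at most 8 per list. The genes and lists were chosen with earlier results of these data known.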

Additional observations from a re-analysis of the deposited data

Results flagged for a closer look

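In 100 groups of 4 libraries (the CPM of each of the 33 genes and the share of each of 17 isozymes, in each genotype), a library standing far from the other 3 was looked for by the gap to its nearest neighbour divided by the range of the group, against Dixon's critical value for 4 samples. The limit is passed by chance in about 5% of groups, and it was passed in 2 groups (2.0%). *Pdha1* stood at 108.1 CPM in *Bmpr1a*-cKO library 1, low beside 129.8 to 132.1 CPM in the other *Bmpr1a*-cKO libraries. Without that library the gene was still called higher. *Pfkfb1* took 27.19% of the PFKFB transcripts in control library 3, high beside 21.63% to 22.1% in the other controls. Its share overlapped between the genotypes (exact permutation p = 0.714). The part of the library in either value was not tested.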

How the results depend on the processing

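*Pfkp*, *Pfkfb3*, *Pdk1* and *Pdk2* kept their direction and their call in all 17 alternatives, and *Slc2a1*, *Hk2*, *Pgk1*, *Pgam1*, *Eno1*, *Pkm*, *Pdha1* and *Pdhb* lost their call under germ cell marker scaling only. The SE was larger under it, at 0.188 against 0.071 for *Slc2a1* and 0.188 against 0.074 for *Pgk1*. The log2FC of the genes that lost their call ranged under it from 0.009 (*Pgk1*) to 0.382 (*Hk2*). With germ cell marker scaling, 3 of the 33 genes were called higher and 3 lower (3 and 3 as DEGs), their median log2FC was -0.18, relative to a shift of all genes of -0.30, and the shift itself moves every gene. *Slc2a3* (-0.013), *Hk1* (-0.29), *Gpi1* (-0.24), *Pfkl* (-0.087), *Pfkfb1* (-0.11), *Aldoa* (-0.18), *Tpi1* (-0.20), *Gapdh* (-0.068), *Eno2* (-0.18), *Ldha* (-0.245) and *Taldo1* (-0.074) turned negative under it. Of all genes, 364 were called higher under it, 359 as upregulated and 2289 as downregulated DEGs, and 1 pathway neighbour, 1 HIF gene and 0 MYC network genes were called higher. Higher calls made up 58.0% of all calls with TMM, 43.1% with library size alone and 13.3% with germ cell marker scaling. With library size alone the median of the 33 genes was 0.095, 5 of them and 2 HIF genes were called lower, and *Hk1* (-0.039) and *Ldha* (-0.009) turned.

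The number of the 33 genes called lower was 4 with DESeq2, 2 with RLE and 3 with no filter, where 1 was called with TMM, and the cause was not tested. With the replicate number as a block it was 5 (*Pdk2*, *Pdk3*, *Tkt*, *Pfkm* and *Pfkfb4*), and 15 were called higher, *Pfkl* among them. The labels do not say what a shared number stands for, and the deviations of same-numbered libraries correlated at 0.20, 0.16, 0.11 and -0.09. As 1 pair was not above 0.1, the numbers were not taken to pair the libraries, and 2 of 4 control libraries correlated best with their own number. With 1 library left out, that number ranged from 1 to 4, the median from 0.089 to 0.197, HIF genes called lower from 0 to 1, and MYC network genes called higher and lower from 1 to 2 each. *Hk1* ranged from -0.047 to 0.112 and *Pgd* from -0.047 to 0.025. Without division by exon length, the differences in share (percentage points) were 4.00 for *Pfkl*, 3.41 for *Pfkp*, 12.8 for *Pfkfb3*, 0.764 for *Eno1*, -0.724 for *Eno3*, 19.7 for *Pdk1*, -5.62 for *Pdk2* and -14.1 for *Pdk3*, in the direction of the shares per kilobase. Left-out libraries give shares as values, since 3 against 4 cannot go below p = 0.0571 in the exact permutation test. At about 1 CPM, as for *Eno2* (SE 0.25), only large changes could be called.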
